A study of Mus musculus with 6 samples.

Results

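The genes described here are 10 regulators of the G1 phase of the cell cycle, taken by name from a table of RNA-Seq counts of mouse lip that lists 26814 gene symbols. They are the D-type cyclins Ccnd1, Ccnd2 and Ccnd3, the kinases Cdk4 and Cdk6, the inhibitors Cdkn1a and Cdkn1b, and the retinoblastoma (Rb) family genes Rb1, Rbl1 and Rbl2. The study asked how transcription in the lip changes when Gtf2ird1, a gene for a DNA-binding transcription factor of the Gtf2i family, is inactivated. Top lip tissue came from 3 mice homozygous for the targeted Gtf2ird1 tm1Hrd allele (KO) and 3 wild type mice (WT), all untreated adult females of 2 to 6 months on a C57BL/6J background. Each mouse gave 1 mRNA library, so the p-values below measure the spread between mice. The allele is present in all cells of the animal, and whole lip holds epidermis, hair follicles, dermis and skeletal muscle.

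Progress from G1 to S phase depends on D-type cyclins, which bind Cdk4 or Cdk6 and phosphorylate the Rb family proteins. Unphosphorylated Rb1 mainly holds back the activator E2F transcription factors, while p107 (made from Rbl1) and p130 (made from Rbl2) pair with the repressor E2Fs and, in resting cells, join the DREAM complex that keeps cell cycle genes silent. The inhibitors p21 (Cdkn1a, a target of p53) and p27 (Cdkn1b) restrain cyclin-dependent kinases, and in skin both are linked to the exit of keratinocytes from division.

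The libraries held 20164081 to 29491767 counts on genes, of which the tested genes took 99.8% in each. All 10 genes passed the filter on low counts, which kept 15009 genes whose level in CPM (counts scaled to a common library size) was 1 or more in 3 or more libraries. The lowest count of any of the 10 was 233, for Cdk6 in KO1. The targeted gene itself was higher in the libraries labelled KO, at 166, 162 and 144 CPM in KO1 to KO3 against 78.2, 70.2 and 70.7 CPM in WT1 to WT3, so directions below refer to libraries by their label. Markers of other tissue components were summed in each library, and few of them passed the test singly. The summed level of 9 tested skeletal muscle markers was 11944 to 15147 CPM in WT and 5900 to 9283 CPM in KO, with 9 of 9 log2 fold changes negative and 1 passing the test (Tnnc2, also listed, had 0 to 5 counts a library). Hair follicle markers summed to 7628 to 9748 CPM in WT and 5272 to 6684 CPM in KO (6 of 6 negative, none passing), and adipocyte markers to 77.3 to 98.2 and 52.5 to 55.4 CPM (5 of 5 negative, 1 passing). Suprabasal keratinocyte markers summed to 19690 to 24332 CPM in WT and 30694 to 46401 CPM in KO (6 of 7 positive, 1 passing). Wound keratinocyte keratins summed to 3841 to 5485 and 5785 to 8827 CPM (4 of 4 positive, 1 passing). The sums of basal keratinocyte markers (10628 to 11559 and 10021 to 11858 CPM) overlapped between genotypes, with 3 of 6 positive. Sums also overlapped for fibroblasts (6355 to 8325 and 2730 to 6660, 6 of 6 negative) and endothelium (130 to 163 and 88.4 to 157, 5 of 5 negative). The same held for macrophages (156 to 198 and 141 to 194, 4 of 5 negative). T cell sums overlapped as well (5.14 to 8.05 and 5.99 to 12.7, 4 of 4 tested positive, with Cd3d too low to be tested). No marker of these overlapping lists passed the test. In whole tissue, fewer cells of a type and less RNA per cell cannot be told apart, and the part of these summed levels in the results below was not tested.

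Of the 10 genes, 1 (Rbl1) rose in KO and 0 fell by the quasi-likelihood test of edgeR at an adjusted p threshold of 0.05. Over all tested genes 4.38% were called higher and 2.09% lower. The 3 KO values lay entirely above or below the 3 WT values for 2 of the 10 genes (Rbl1 above, Ccnd3 below), where 31.5% of all tested genes did so in either direction. The median log2 fold change of the 10 genes was -0.08, beside -0.02 over all tested genes. At an unadjusted p under 0.05, 1 gene was higher (Rbl1) and 1 lower (Ccnd3), where 2031 of all 15009 tested genes were higher and 2408 lower. The same single gene, Rbl1, was called by edgeR's exact test, the test of the study, and by DESeq2's Wald test. The exact test called 7.76% (1165) of the 15009 tested genes higher and 7.15% (1073) lower. DESeq2, run without the CPM filter on 26805 genes, called 5.64% (1511) higher and 3.35% (898) lower. The 26805 may include low genes that DESeq2's own automatic filter left without an adjusted p, so these shares may be too low.

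**Figure D1:**
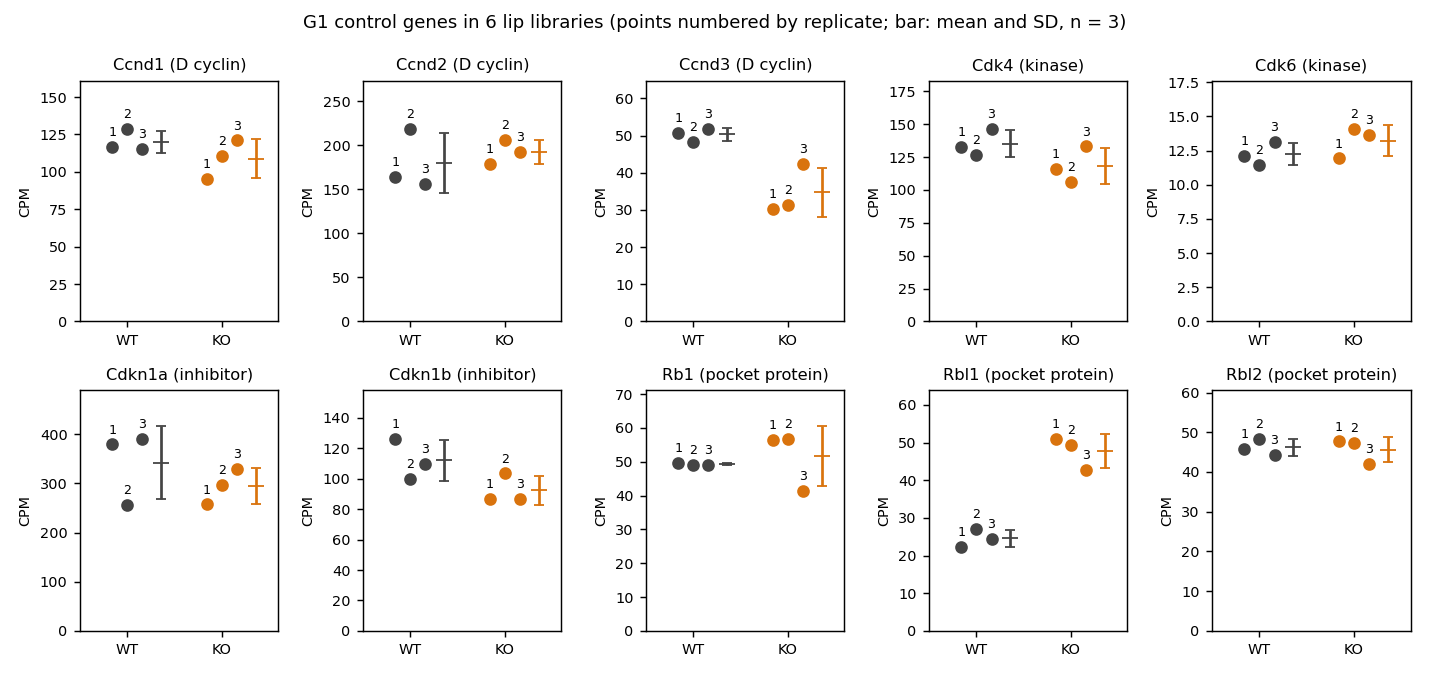
Level of each of the 10 G1 control genes in CPM (vertical axes, from 0) in the 3 WT and 3 KO libraries, each point numbered by replicate, with the mean and SD beside it. The KO points of Rbl1 (42.8 to 51.1 CPM) lie above all WT points (22.3 to 27.0), those of Ccnd3 (30.3 to 42.4) lie below all WT points (48.3 to 51.7), and the genotypes overlap for the other 8 genes.

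Rbl1 (chromosome 2, 157145893 to 157204534, minus strand, GRCm38) and its closest relative Rbl2 (chromosome 8, 91070057 to 91123844, plus strand) are shown first with their promoters, because Rbl1 is the one that was called and Rbl1 transcription is known to be driven by E2F itself. The sequences run 5′ to 3′ on the gene's strand from 250 bases before to 50 bases after the RefSeq transcription start (GRCm38.p6, chr2:157204485-157204784 and chr8:91069807-91070106), with matches to the E2F letters in capitals.
Rbl1: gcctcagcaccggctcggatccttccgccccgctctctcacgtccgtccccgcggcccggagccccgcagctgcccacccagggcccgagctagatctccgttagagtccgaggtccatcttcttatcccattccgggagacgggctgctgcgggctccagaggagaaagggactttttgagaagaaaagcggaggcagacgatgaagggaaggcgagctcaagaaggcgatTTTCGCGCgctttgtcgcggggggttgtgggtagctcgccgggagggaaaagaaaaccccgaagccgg
Rbl2: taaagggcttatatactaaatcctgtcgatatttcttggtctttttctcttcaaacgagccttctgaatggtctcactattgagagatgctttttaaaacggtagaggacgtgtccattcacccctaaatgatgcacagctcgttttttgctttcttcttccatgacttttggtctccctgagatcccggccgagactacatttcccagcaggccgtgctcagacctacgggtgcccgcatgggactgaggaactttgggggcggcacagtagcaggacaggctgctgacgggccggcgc
The letters searched on both strands were TTTGGCGC, TTTGCCGC, TTTCGCGC and TTTCCCGC, which are 4 forms of the E2F motif. Rbl1 had 1 match, TTTCGCGC, whose first base lies at -18 from the start, and no match was found in the window of Rbl2. Whether E2F or this match has a part in the Rbl1 levels below was not tested. Such a match was present in 2.26% of the 32851 RefSeq promoters of this length and in 1 of the 9 promoters (7 genes) of the G1 control genes in the table. No RefSeq promoter was available here for Ccnd1, Ccnd2 and Rb1, so the 9 promoters leave these genes out.

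Rbl1 was measured at 22.3, 27.0 and 24.3 CPM in WT1 to WT3 and at 51.1, 49.4 and 42.8 CPM in KO1 to KO3. Each KO library was above each WT library, and the lowest KO value was well clear of the highest WT value. The mean was 24.5 ± 2.35 CPM (SD, n = 3) in WT and 47.7 ± 4.40 CPM (SD, n = 3) in KO. The log2 fold change was 0.96 with a standard error of 0.14, which is a 1.95-fold difference (95% interval 1.55 to 2.44), with an adjusted p of 0.00696 in edgeR's quasi-likelihood test. By p-value Rbl1 stood at position 298 of the 15009 tested genes. The overlapping gene Gm14277, on the opposite strand, shares no exon bases with it.

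The direction of Rbl1 was the same in 17 of 17 other fits, with log2 fold changes from 0.89 to 1.09. It was called in each of the 11 that kept all libraries and in 4 of the 6 that left a library out. Without WT replicate 1 the adjusted p was 0.0507 and without KO replicate 2 it was 0.0506, at log2 fold changes of 0.89 and 0.99 (edgeR's quasi-likelihood test). Over all tested genes, these fits called 315 and 208 higher, against 657 with all libraries.

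Rbl2 was at 45.8, 48.4 and 44.3 CPM in WT1 to WT3 and at 47.7, 47.2 and 41.9 CPM in KO1 to KO3. These values overlap throughout, with a log2 fold change of -0.02 (95% interval -0.30 to 0.27, adjusted p = 0.937 by edgeR). The interval leaves out a change as large as that measured for Rbl1, and with each library left out in turn the value stayed between -0.050 and 0.076. Part of the Rbl2 exons is shared with Aktip (693 bases) and Gm45464 (892 bases), both on the opposite strand.

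Rb1 (chromosome 14, 73183673 to 73325822, minus strand), the founding member of the family and a tumour suppressor, was at 49.6, 49.1 and 49.1 CPM in WT1 to WT3 and at 56.5, 56.9 and 41.3 CPM in KO1 to KO3. The WT values were nearly equal, whereas in KO replicates 1 and 2 lay above all WT values and replicate 3 below all of them. The coefficient of variation was 0.557% in WT and 17.2% in KO. The log2 fold change was 0.07 (95% interval -0.29 to 0.42), with an adjusted p of 0.797 in edgeR's test. It was 0.21 without KO replicate 3 and 0.12 without WT replicate 2, in neither case with a call. Its locus overlaps Rcbtb2 (488 shared exon bases) and Lpar6 (408 shared exon bases) on the opposite strand.

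To compare the genes with each other, levels were divided by exon length (CPM per kilobase of exon, RPKM), and each gene was then expressed as a share of its family within the same library, which does not depend on how libraries are scaled. Rbl1 made up 20.7%, 23.6% and 22.5% of the Rb family RPKM in WT1 to WT3 and 35.2%, 34.4% and 36.5% in KO1 to KO3. The mean share was 22.2 ± 1.49% in WT and 35.4 ± 1.04% in KO, a difference of 13.1 percentage points (p = 0.1 in a two-sided exact permutation test, which cannot give less with 3 against 3). The shares of Rb1 (44.6% in WT, 37.8% in KO) and Rbl2 (33.2% in WT, 26.8% in KO) were correspondingly smaller in KO, as shares that sum to 100% must be when one of them grows.

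The summed Rb family RPKM was 18.0, 19.1 and 18.1 in WT1 to WT3 and 24.2, 24.0 and 19.6 in KO1 to KO3. All KO sums were above all WT sums, although KO replicate 3 was close to WT replicate 2 (means 18.4 ± 0.593 and 22.6 ± 2.62, exact permutation p = 0.1). In WT the order of mean levels within the family was Rb1 (8.19 RPKM), Rbl2 (6.11) and Rbl1 (4.10), and in KO it was Rb1 (8.58), Rbl1 (7.97) and Rbl2 (6.04). The Rb1 and Rbl1 values of KO overlapped, so the first of these positions was not separated in KO.

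**Figure D2:**
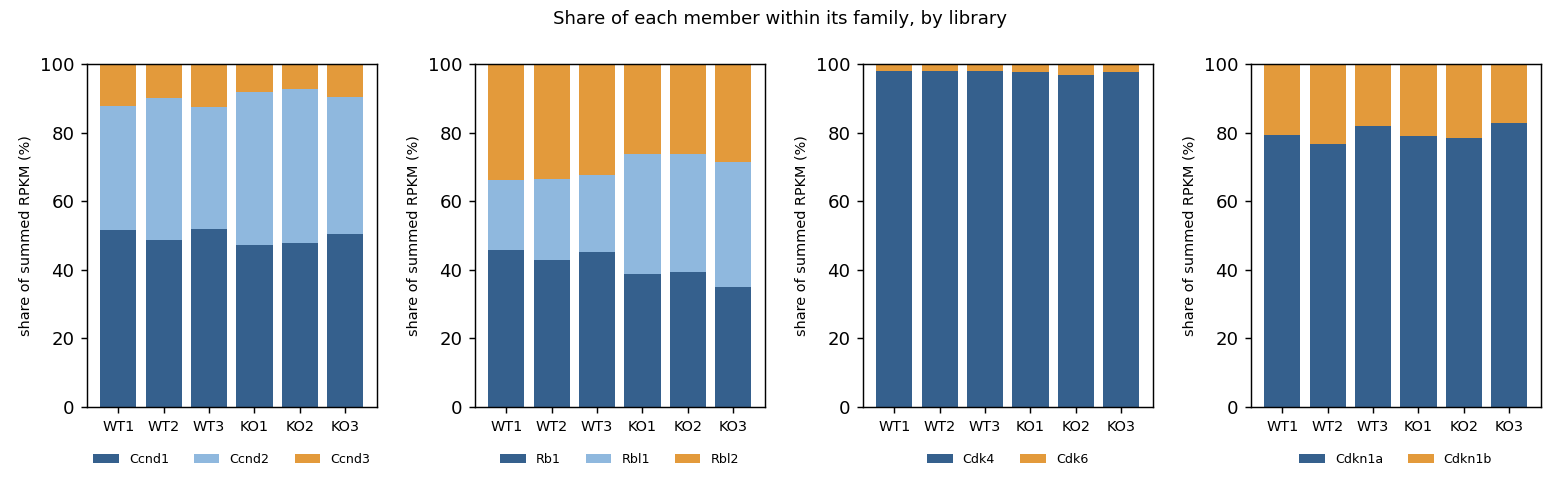
Share of each gene in the summed RPKM of its family (vertical axes, percent), as stacked bars for each of the 6 libraries. The Rbl1 segment spans 20.7 to 23.6% in WT and 34.4 to 36.5% in KO, the Ccnd3 segment 9.83 to 12.6% in WT and 7.29 to 9.48% in KO, and the Cdkn1a segment overlaps between genotypes.

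Among the D-type cyclins, which couple growth signals to the cell cycle, Ccnd3 was the only one whose genotypes did not overlap. Ccnd3 (chromosome 17, 47505051 to 47599691, plus strand) has 2 starts in the RefSeq promoter table, at chr17:47504801-47505100 and chr17:47593217-47593516, which are shown because counts per gene do not tell transcripts from the distal start and the proximal start apart. No letters are in capitals, since neither window held a match to any motif searched.
Ccnd3 distal start: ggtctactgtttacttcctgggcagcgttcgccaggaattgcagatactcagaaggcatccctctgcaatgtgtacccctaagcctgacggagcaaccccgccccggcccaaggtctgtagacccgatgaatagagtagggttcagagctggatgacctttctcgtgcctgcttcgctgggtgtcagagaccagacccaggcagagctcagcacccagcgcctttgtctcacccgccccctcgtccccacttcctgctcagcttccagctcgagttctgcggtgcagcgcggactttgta
Ccnd3 proximal start: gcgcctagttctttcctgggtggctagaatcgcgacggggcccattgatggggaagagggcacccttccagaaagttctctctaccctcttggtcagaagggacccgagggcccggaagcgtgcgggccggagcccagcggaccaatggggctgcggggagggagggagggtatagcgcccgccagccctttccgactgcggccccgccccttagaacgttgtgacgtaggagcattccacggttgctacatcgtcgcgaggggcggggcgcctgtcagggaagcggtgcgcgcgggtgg
Both are rich in G and C, at 59.3% for the distal window and 67.0% for the proximal one.

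Ccnd3 was at 50.8, 48.3 and 51.7 CPM in WT1 to WT3 and at 30.3, 31.3 and 42.4 CPM in KO1 to KO3. The WT values were tightly grouped and all above the KO values, among which replicate 3 was the nearest to WT. The mean was 50.3 ± 1.75 CPM in WT and 34.7 ± 6.69 CPM in KO (SD, n = 3 each), a fitted difference of -31.0% (95% interval -46.6 to -10.9%). On the log2 scale this was -0.54 with a standard error of 0.16, and the adjusted p in edgeR's quasi-likelihood test was 0.081 (unadjusted p = 0.0101), which did not pass the threshold of 0.05.

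The result for Ccnd3 turned on KO replicate 3. Without that library, the log2 fold change was -0.70 and the adjusted p 0.00492, in a fit that called 16.9% of 14802 tested genes higher and 16.2% lower, several times the shares with all libraries. In the other 5 fits with a library left out the adjusted p was over the threshold, up to 0.326, with log2 fold changes no nearer 0 than -0.39. Over all tested genes, those 5 fits called 18 to 62 lower, against 314 with all libraries. In the 11 fits with all libraries the adjusted p was 0.0646 to 0.164, and the direction was the same in 17 of 17 fits. KO replicate 3 was the KO library nearest to the WT mean for 5 of the 10 genes, KO replicate 1 for 3 and KO replicate 2 for 2. This was not counted over all tested genes. Ccnd3 shares 361 exon bases with Bysl on the opposite strand, which was at 35.6, 26.4 and 30.8 CPM in WT and 28.6, 30.7 and 46.7 CPM in KO (log2 fold change 0.19, adjusted p = 0.571 by edgeR).

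**Figure D3:**
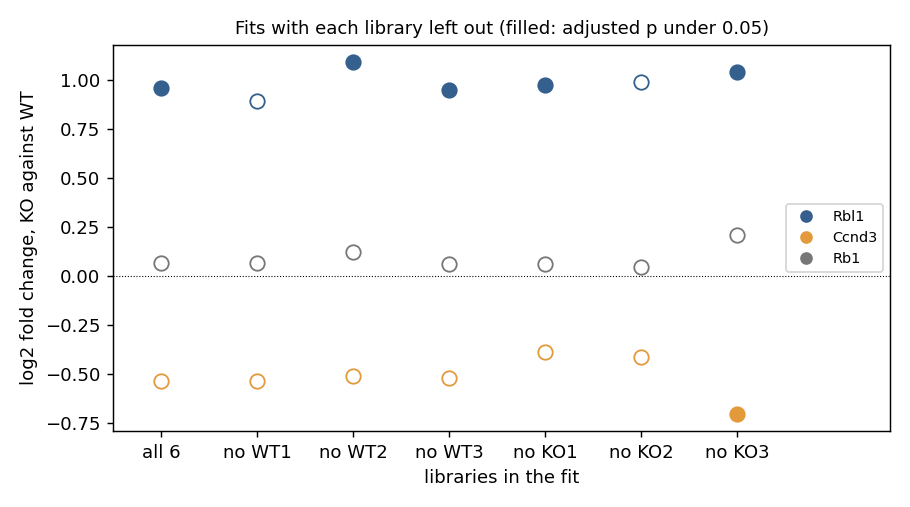
Log2 fold change, KO against WT (vertical axis), of Rbl1, Ccnd3 and Rb1 with all 6 libraries and with each library left out in turn (horizontal axis), where filled points have an adjusted p under 0.05. Rbl1 stays between 0.89 and 1.09 and Ccnd3 between -0.70 and -0.39, the latter filled only without KO replicate 3.

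Ccnd1 (chromosome 7, 144929931 to 144939925, minus strand), the D cyclin most often tied to growth factor and Wnt signals, was at 117, 129 and 115 CPM in WT1 to WT3 and at 95.1, 110.5 and 121 CPM in KO1 to KO3. KO replicate 3 lay within the WT range and replicates 1 and 2 below it. Its log2 fold change was -0.14 (95% interval -0.45 to 0.17, adjusted p = 0.506 by edgeR). Without KO replicate 1 it was 0.0084, without WT replicate 2 -0.032, and without KO replicate 3 -0.22, with no call.

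Ccnd2 (chromosome 6, 127125162 to 127152193, minus strand) was at 165, 218 and 156 CPM in WT1 to WT3 and at 179, 206 and 192 CPM in KO1 to KO3. The highest value belonged to WT replicate 2, and all KO values fell between the WT extremes. For Ccnd2 the log2 fold change was 0.10 (95% interval -0.27 to 0.47, adjusted p = 0.705 by edgeR). It was 0.32 without WT replicate 2, 0.21 without KO replicate 1, 0.035 without WT replicate 1 and 0.0044 without WT replicate 3, with no call in any of these fits. Ccnd1 overlaps LTO1 on the opposite strand with 1100 shared exon bases, and Ccnd2 overlaps Gm43126 and 9330179D12Rik with 372 and 368.

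Within the family, Ccnd3 made up 12.05%, 9.83% and 12.6% of the D cyclin RPKM in WT1 to WT3 and 8.10%, 7.29% and 9.48% in KO1 to KO3. The groups did not overlap, but the highest KO share came close to the lowest WT share (means 11.5 ± 1.45% and 8.29 ± 1.11%, a difference of -3.19 percentage points, exact permutation p = 0.1). With the length of the longest transcript in place of all exons, the means were 17.9% in WT and 13.1% in KO. Ccnd1 took 50.8% in WT and 48.6% in KO, and Ccnd2 37.7% and 43.1% (exact permutation p = 0.2 for each, with overlap). The summed D cyclin RPKM was 50.4 ± 4.95 in WT and 47.5 ± 4.32 in KO, which overlapped (exact permutation p = 0.6).

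Cdk4 and Cdk6 encode the kinases that D cyclins activate. Cdk4 (chromosome 10, 127063534 to 127067920, plus strand) was at 133, 127 and 146 CPM in WT1 to WT3 and at 116, 106 and 133 CPM in KO1 to KO3. KO replicates 1 and 2 were below all WT values and replicate 3 was within them. Its log2 fold change was -0.19 (95% interval -0.51 to 0.12, adjusted p = 0.372 by edgeR). With a library left out it ran from -0.28 without KO replicate 3 to -0.060 without KO replicate 2, and it was -0.12 without KO replicate 1, with no call. Cdk4 shares 641 exon bases with Tspan31 on the opposite strand. Its promoter (chr10:127063285-127063584) is shown because it held 4 matches to the E-box CACGTG, the letters bound by Myc and related factors, marked in capitals.
Cdk4: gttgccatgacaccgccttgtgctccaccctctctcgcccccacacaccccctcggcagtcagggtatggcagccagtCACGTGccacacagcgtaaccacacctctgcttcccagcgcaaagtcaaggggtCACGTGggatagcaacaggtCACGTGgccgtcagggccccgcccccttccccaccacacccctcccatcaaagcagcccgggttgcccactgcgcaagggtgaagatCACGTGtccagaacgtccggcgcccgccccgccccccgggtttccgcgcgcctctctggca
The matches start at -172, -118, -98 and -11 from the transcription start. Cdk6 had 1 match, at -220, and an E-box was present in 7.15% of all RefSeq promoters of this length. The letters GGATTA, a core to which GTF2IRD1 is known to bind, were found on either strand in 7.06% of all promoters and in 0 of the 9 promoters of the G1 control genes, which says only that these letters are not in the windows.

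Cdk6 (chromosome 5, 3341485 to 3531008, plus strand) was the lowest of the 10 genes, at 12.1, 11.5 and 13.1 CPM in WT1 to WT3 and 11.9, 14.1 and 13.7 CPM in KO1 to KO3. The values of the genotypes overlapped, with a log2 fold change of 0.11 (95% interval -0.24 to 0.46, adjusted p = 0.645 by edgeR), which was 0.24 without KO replicate 1. Its share of the summed Cdk4 and Cdk6 RPKM was 2.08%, 2.06% and 2.04% in WT1 to WT3 and 2.33%, 2.99% and 2.33% in KO1 to KO3. The shares in KO were all higher, by 0.489 percentage points on average (exact permutation p = 0.1), of which KO replicate 2 carried much, since without it the difference was 0.269 points. Cdk4 was the major kinase by RPKM in every library. The summed RPKM of both was 42.5 ± 3.16 in WT and 37.4 ± 4.23 in KO (exact permutation p = 0.3).

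Of the inhibitors, Cdkn1a (chromosome 17, 29090976 to 29100727, plus strand) was at 380, 257 and 392 CPM in WT1 to WT3 and at 257, 297 and 330 CPM in KO1 to KO3. WT replicate 2 was as low as the lowest KO library, and the SD in WT was 74.7 CPM. The log2 fold change was -0.22 (adjusted p = 0.471 by edgeR), with a 95% interval from -36.7% to 16.9% in linear terms. It was -0.33 without WT replicate 2, -0.11 without WT replicate 3, -0.14 without WT replicate 1 and -0.065 without KO replicate 1, with no call. Cdkn1a overlaps AC167363.2 on the opposite strand with 273 shared exon bases.

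Cdkn1b (chromosome 6, 134920401 to 134925513, plus strand) was at 126, 99.9 and 109.7 CPM in WT1 to WT3 and at 86.9, 104 and 86.8 CPM in KO1 to KO3. KO replicates 1 and 3 were below all WT values and replicate 2 within them. The log2 fold change was -0.28 (95% interval -0.61 to 0.05, adjusted p = 0.231 by edgeR), and no annotated gene overlaps it. Without WT replicate 1 it was -0.18 and without KO replicate 1 -0.17, with no call. Cdkn1a made up 79.4 ± 2.69% of the summed RPKM of the inhibitors in WT and 80.2 ± 2.36% in KO (exact permutation p = 0.7), with overlapping values. Their summed RPKM was 121 ± 23.3 in WT and 103 ± 10.5 in KO (exact permutation p = 0.3).

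**Figure D4:**
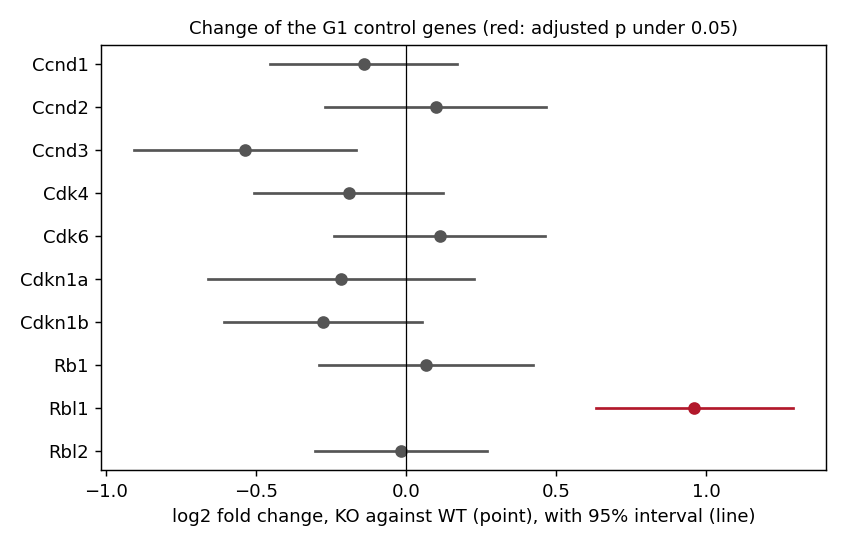
Log2 fold change, KO against WT (horizontal axis), of the 10 G1 control genes with the 95% interval from edgeR's fit as a line, red where the adjusted p was under 0.05. Only the intervals of Rbl1 (0.63 to 1.29) and Ccnd3 (-0.91 to -0.17) leave out 0, and only Rbl1 is red.

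By mean RPKM in WT the 10 genes ran from Cdkn1a (96.4 ± 21.03) through Cdk4 (41.6 ± 3.10), Ccnd1 (25.5 ± 1.56), Cdkn1b (24.6 ± 2.95), Ccnd2 (19.1 ± 3.58), Rb1 (8.19 ± 0.0456), Rbl2 (6.11 ± 0.276), Ccnd3 (5.73 ± 0.200) and Rbl1 (4.10 ± 0.391) to Cdk6 (0.875 ± 0.0596). Neighbours whose WT values overlapped were Ccnd1 with Cdkn1b, Cdkn1b with Ccnd2, and Rbl2 with Ccnd3. By mean RPKM over all 6 libraries, Cdkn1a was at percentile 96.5 and Cdk6 at percentile 13.4 of the tested genes with an annotated exon length. In KO the order was Cdkn1a (82.9 ± 10.2), Cdk4 (36.4 ± 4.23), Ccnd1 (23.1 ± 2.77), Ccnd2 (20.5 ± 1.45), Cdkn1b (20.3 ± 2.12), Rb1 (8.58 ± 1.48), Rbl1 (7.97 ± 0.734), Rbl2 (6.04 ± 0.424), Ccnd3 (3.95 ± 0.762) and Cdk6 (0.945 ± 0.0817). There Ccnd1 overlapped with Ccnd2, Ccnd2 with Cdkn1b, and Rb1 with Rbl1. The place of Ccnd3 depends on the length used, since with its longest transcript it was at 13.0 RPKM in WT, above Rb1 at 10.6 on the same basis. That of Ccnd2 does too. With longest transcripts Ccnd2 was above Cdkn1b in WT (28.4 against 24.6) and above Ccnd1 in KO (30.4 against 29.1).

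The other genes of the G1/S pathway were read from the same fit in 3 lists, 51 genes in all, of which 50 were tested. Of these, 0 were called higher and 0 lower by edgeR's quasi-likelihood test, and the median log2 fold change was 0.12. At an unadjusted p under 0.05, 4 were higher and 3 lower, beside 2031 and 2408 of all 15009 tested genes. edgeR's exact test called 2 higher (Mnat1 and Rrm1) and 2 lower (Cdkn1c and Cdkn2b), and DESeq2 3 higher (Mnat1, Ccna2 and Rrm1) and 1 lower (Cdkn1c). Without KO replicate 3, 5 were called higher and 3 lower, in the fit with the high shares of calls given above.

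The first list held 16 regulators of the G1/S step (cyclin E and its kinase, further inhibitors, Cdc25a, the Cdk-activating kinase, Myc and factors of inhibitor turnover). Of the 15 tested, 8 had a positive log2 fold change and the median was 0.11. Cdkn2a had 0 to 1 counts in the WT libraries and 3 to 4 in the KO libraries and was not tested. The lowest p belonged to Cdkn1c, which encodes the inhibitor p57, at 15.5, 15.2 and 17.9 CPM in WT1 to WT3 and 5.88, 7.79 and 12.4 CPM in KO1 to KO3 (log2 fold change -0.89, adjusted p = 0.0801 by edgeR). Its KO values were all below its WT values, with replicate 3 the nearest to WT. Mnat1, the assembly factor of the Cdk-activating kinase, was at 10.5, 17.0 and 15.0 CPM in WT and 23.5, 23.1 and 19.9 CPM in KO (log2 fold change 0.65, adjusted p = 0.0868 by edgeR).

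The second list held 17 genes of E2F factors, their DP partners and the DREAM and MuvB complexes with which Rbl1 and Rbl2 proteins work. None of the 17 had an unadjusted p under 0.05, 7 were positive, and the median log2 fold change was -0.02. E2f2, an activator E2F, was at 44.7 ± 7.23 CPM in WT and 33.9 ± 6.18 CPM in KO (adjusted p = 0.188), and Tfdp1, the main DP partner, at 67.7 ± 7.15 and 82.3 ± 5.54 CPM (adjusted p = 0.194, edgeR with n = 3 each).

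The other list held 18 S-phase genes known as E2F targets, among them the Mcm helicase subunits and enzymes of nucleotide supply. All 18 had a positive log2 fold change, from 0.03 to 0.71 with a median of 0.31, while 7208 of the 15009 tested genes were positive. The smallest was that of Mcm7, at 0.03 with a standard error of 0.14. Upper-quartile scaling moved the median of all tested genes from -0.023 to -0.079. Whether all 18 stayed positive in other fits was not counted. None of the 18 passed the test. Of the 18, 2 were higher at an unadjusted p under 0.05, as were 2031 of all 15009 tested genes. Their summed level was 433, 660 and 523 CPM in WT1 to WT3 and 664, 624 and 688 CPM in KO1 to KO3. WT replicate 1 was the lowest, and WT replicate 2 was at the level of the KO libraries. The groups overlapped (exact permutation p = 0.2). Ccna2, the S-phase cyclin, was at 31.4, 26.6 and 35.9 CPM in WT and 40.8, 44.2 and 46.2 CPM in KO (log2 fold change 0.48, adjusted p = 0.0888), and Rrm1, a subunit of ribonucleotide reductase, at 30.6, 61.5 and 49.0 and at 75.1, 79.8 and 70.7 CPM (log2 fold change 0.68, adjusted p = 0.108, edgeR). An E2F match was present in 8 of the 16 promoters (15 genes) of this list, beside 2.26% of all RefSeq promoters of this length. The list was made of known E2F targets, so this share says nothing about the lip libraries. A match was present in 3 of 17 promoters of the first list and 6 of 18 of the second. For the G2 and M phase genes and p53 targets described below it was 1 of 9 and 0 of 14.

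Beyond G1, 10 genes of the G2 and M phases were read from the same fit. Of these 9 were positive, with a median log2 fold change of 0.58. Of the 10, 2 rose in KO, beside 4.38% of all tested genes called higher. Ccnb1, the mitotic cyclin, was at 18.1, 19.7 and 25.2 CPM in WT1 to WT3 and at 43.2, 52.7 and 44.9 CPM in KO1 to KO3 (log2 fold change 1.16 ± 0.17 (SE), adjusted p = 0.00634 by edgeR). Top2a, which untangles DNA for mitosis, was at 47.6, 53.9 and 83.2 CPM in WT and at 145, 174 and 109 CPM in KO (log2 fold change 1.21 ± 0.25 (SE), adjusted p = 0.0313 by edgeR). Neither gene overlapped between genotypes. The summed level of the list was 317, 274 and 481 CPM in WT and 689, 793 and 603 CPM in KO (exact permutation p = 0.1). With a library left out, 1 to 4 of the 10 genes were called higher. The lowest number came without WT replicates 1 or 2 or KO replicates 1 or 2, and the highest without KO replicate 3. Over all tested genes, the fits with the lowest number called 208 to 476 genes higher. The fit with the highest called 2496, beside 657 with all libraries.

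Of 14 targets of p53 other than Cdkn1a, 7 were positive and 7 negative, with a median log2 fold change of -0.01. Of the 14, 1 rose, beside 4.38% of all tested genes called higher. Pmaip1, which encodes the pro-apoptotic protein Noxa, was at 2.36, 2.76 and 1.93 CPM in WT1 to WT3 and at 5.48, 4.73 and 5.40 CPM in KO1 to KO3 (log2 fold change 1.14 ± 0.21 (SE), adjusted p = 0.0192 by edgeR). The summed level of the list was 2948 ± 279 CPM in WT and 2969 ± 234 CPM in KO (exact permutation p = 1). With a library left out, 0 to 3 were called higher: 0 without WT replicate 1 or 3 or KO replicate 1 or 2, and 3 without KO replicate 3. Over all tested genes, the fits with 0 called 208 to 323 genes higher. The fit without KO replicate 3 called 2496 (16.9%), beside 657 with all libraries.

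**Figure D5:**
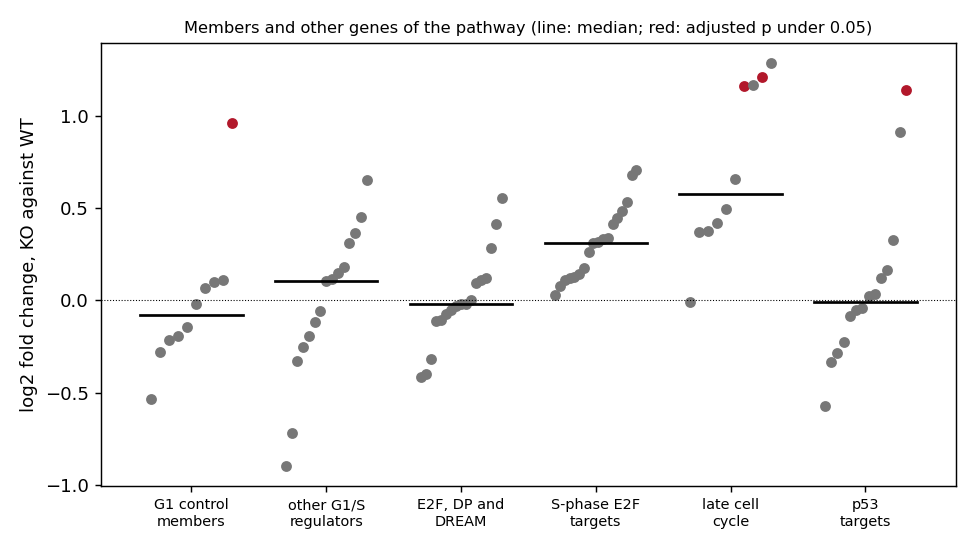
Log2 fold change, KO against WT (vertical axis), of the G1 control genes and of each tested gene in the 5 lists, with a line at each list's median and red points for an adjusted p under 0.05. All points of the S-phase list lie above 0 without a red one, while the late cell cycle list has the highest median, 0.58, and 2 red points.

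Likeness to Ccnd3 and Rbl1 was measured as the root mean square difference, over the 6 libraries, of log2 CPM values centred on each gene's mean, among 83 other genes of these lists. It is a description in which all genes share the same libraries. The difference between genotypes is part of it, so genes with a log2 fold change near that of Ccnd3 or Rbl1 tend to rank high. The genes most like Ccnd3 were E2f2 (0.149), Cdc25a (0.158), a phosphatase that activates Cdk2, and Phlda3 (0.1604), a p53 target. Cdc25a was at 20.1 to 21.5 CPM in WT and 15.8 to 17.5 CPM in KO (adjusted p = 0.154), and Phlda3 at 90.0 to 131 and 65.9 to 93.0 CPM (adjusted p = 0.103, edgeR). Those most like Rbl1 were Pmaip1 (0.190), Mnat1 (0.197) and Ccnb1 (0.210), whose values stand above.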

How the data were processed

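RNA-Seq counts of top lip from 3 WT and 3 KO mice were analysed. Paired-end reads had been aligned by the authors to GRCm38 using TopHat2 2.0.8 and Bowtie2 2.1.0, as the submitters' processing notes and the study's methods name them, and the deposited values are raw counts of reads that HTSeq assigned to each gene symbol, not normalized. The strand setting of the counting is not given in the sources used here, so overlapping genes on the opposite strand are named. The number of libraries and 20164081 to 29491767 counts in each limit the precision.

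Genes were kept from a level of 1 CPM in 3 or more libraries. Genotypes were compared in R 4.3.3 with edgeR 4.0.16 (TMM scaling, glmQLFit with legacy=FALSE, glmQLFTest, no covariate), with Benjamini-Hochberg adjustment over all 15009 tested genes and a threshold of 0.05. Intervals are those of the fit. The study used edgeR's older exact test, which was an alternative here, with DESeq2 1.42.0, limma-voom (limma 3.58.1), other scalings and filters, a block for replicate number and left-out libraries. CPM values are scaled by TMM, and RPKM values divide them by the union of exons in GENCODE M21 (24858 of 26814 symbols found). Sums and shares were compared with two-sided exact permutation tests. Promoter sequences are RefSeq's (GRCm38.p6). Figures were drawn with Python 3.11.15 and matplotlib 3.10.9. The procedure was tested on simulated data.

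The 10 genes and all lists were chosen with earlier results of these data known. Besides the 10, the text names from each list the called genes or, with none called, the 2 with the lowest p, and the 3 genes most like Ccnd3 and Rbl1. Further genes that other tools called, and Bysl, were named after their values were seen.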

Additional observations from a re-analysis of the deposited data

How the results depend on the processing

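Levels compared between genes depend on the exon length used, and the p-values rest on 3 mice per genotype. The 11 alternatives that kept all libraries left Rbl1 as the only gene of the 10 called higher and 0 called lower. With a library left out, 0 to 1 were called higher (0 without WT replicate 1 or KO replicate 2) and 0 to 1 lower (1, Ccnd3, without KO replicate 3). Of the other G1 and E2F genes, none was called by the quasi-likelihood fit, 2 were called higher by edgeR's exact test and 3 by DESeq2, and 2 and 1 lower. With a library left out, 0 to 5 were called higher and 0 to 3 lower, and the causes were not tested. Over all tested genes, those fits called 208 to 2496 higher and 18 to 2395 lower.

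The sign turned for Rbl2 with DESeq2 (0.024), with its size factors (0.0097) and without a filter (0.031), and with libraries left out it ran from -0.050 to 0.076. That of Ccnd1 ran from -0.22 to 0.0084 with libraries left out. The difference in the Ccnd3 share was -4.78 percentage points with longest transcripts and that of Cdk6 1.81 with raw counts, since other lengths enter the shares. With libraries left out, the differences ran from -4.01 to -2.65 for Ccnd3, 12.3 to 13.8 for Rbl1, 0.269 to 0.6 for Cdk6 and -0.49 to 2.21 for Cdkn1a.

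Under the replicate block, 1 of the 10 genes was called higher and 0 lower, Rbl1 had a log2 fold change of 0.96 (adjusted p = 0.019 by edgeR), and all tested genes gave 580 higher and 217 lower calls in place of 657 and 314. The late cell cycle genes called higher went from 2 to 1. Deviations of libraries with the same number correlated at -0.192, 0.293 and 0.312, and those with unlike numbers at -0.504 to 0.407. The labels give only a replicate number. With 3 libraries per genotype, these values cannot show whether libraries with the same number share anything more. Counts called higher in the late cell cycle and p53 lists under other fits, chosen after seeing the data, were 4 and 2 with either the exact test or DESeq2. Over all genes, the exact test called 7.76% higher and DESeq2 5.64%. Without a filter, 3 late cell cycle genes were called higher, beside 915 of all 26814 genes.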
